A study of Rattus norvegicus with 4 samples.

Results

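The genes of the antiviral GTPases were taken from the deposited table as the rows whose gene symbol in the platform annotation was exactly Mx1, Mx2, Gbp2, Gbp4, Gbp5, Igtp or Irgm. Of these 7 genes 6 had such a row, among 14497 genes tested in all. Each of the 6 had 1 probe set, a group of probes read as 1 value, so no choice between rows was needed. Gbp4 had no row under its symbol and was not analysed here. The samples were primary cultures of hippocampal neurons from rat embryos, 2 cultures transduced with an shRNA against Gld2 and 2 cultures transduced with a scrambled control shRNA. Gld2 (gene symbol Tent2) is a poly(A) polymerase of the cytoplasm, and all 4 cultures had received a transduced shRNA, so untreated cells were not compared. The RNA on the whole-transcript arrays had been released by heat from poly(U) Sepharose, which binds poly(A) tails, and a change in amount cannot be told apart from a change in recovery by that step. The vector, its promoter, the number of hairpins, the age in culture and any pooling of embryos were not given in the sources used here. Nothing states whether the 2 cultures of a treatment were prepared apart, so the p-values cover only the spread between these arrays, which may be technical.

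Mx proteins and guanylate-binding proteins are large GTPases of the dynamin superfamily, and the immunity-related GTPases Igtp and Irgm belong to a second family of GTPases that interferon induces. Mx proteins trap viral nucleocapsids or polymerases, guanylate-binding proteins coat microbes and the vacuoles that hold them, and immunity-related GTPases act on such vacuoles. In resting brain cells these genes are kept low. Type I interferon induces them through a complex with IRF9 that binds the interferon-stimulated response element (ISRE), and interferon gamma induces guanylate-binding proteins and immunity-related GTPases through the gamma-activated site (GAS) and through IRF1.

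All 6 measured GTPase genes were higher in the Gld2 shRNA cultures than in the scrambled shRNA cultures. Mx1 was 13.1-fold higher, Mx2 11.1-fold, Gbp5 7.04-fold, Gbp2 6.79-fold, Irgm 4.42-fold and Igtp 1.97-fold. The test was limma, with p-values adjusted by Benjamini-Hochberg over the 14497 genes and called under 0.05, and 6 of 6 members passed it in the upward direction, where 1.69% of all genes did. The members were chosen with earlier results of these data known, so this count is a description of them. Among all genes 0.510% passed the threshold with a rise of at least 2-fold, and 5 of the 6 members did, with Igtp just below that size. The median log2 difference of the members was 2.79 against -0.02 over all genes. By mean value in the scrambled shRNA cultures, the members stood between percentile 30.2 (Mx1) and 53.7 (Gbp5) of all genes. In bulk cultures, more cells of a type and more RNA per cell cannot be told apart.

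The 120 bases before the annotated start are shown for the members with an entry in the RefSeq promoter table (build GRCr8), since the genes moved together and the ISRE and GAS are the sites that interferon signalling is known to use. Capitals mark matches to an ISRE core, searched as GAAANNGAAA, and to a GAS, searched as TTCNNNGAA, on both strands. The search covered the 250 bases before and the 50 bases after each start. Mx2 had no entry, so 5 of the 6 measured members could be searched.
Mx1 (chr11:50294607-50294726, minus strand): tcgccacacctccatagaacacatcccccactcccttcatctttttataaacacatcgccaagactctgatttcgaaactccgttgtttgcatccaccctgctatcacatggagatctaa
Gbp2 (chr2:234005607-234005726, plus strand): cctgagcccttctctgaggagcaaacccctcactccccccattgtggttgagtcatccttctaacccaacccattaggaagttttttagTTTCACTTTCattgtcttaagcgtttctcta
Gbp5 (chr2:233910879-233910998, plus strand): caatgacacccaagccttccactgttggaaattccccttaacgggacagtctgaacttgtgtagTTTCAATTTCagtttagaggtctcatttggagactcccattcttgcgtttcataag
Irgm (chr10:33742579-33742698, minus strand): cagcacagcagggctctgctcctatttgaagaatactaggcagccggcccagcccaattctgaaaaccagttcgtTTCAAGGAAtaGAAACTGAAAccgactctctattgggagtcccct
Igtp (chr10:42874927-42875046, plus strand): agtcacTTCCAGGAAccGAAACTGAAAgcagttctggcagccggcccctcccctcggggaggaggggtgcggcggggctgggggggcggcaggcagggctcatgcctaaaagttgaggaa

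An ISRE core was present in 4 of these 5 windows, against 3.41% of the 11963 tested genes with a window and 26.6% of the 199 genes that were higher and had one. In Gbp2 it lay 31 to 22 bases before the start and in Gbp5 56 to 47 bases before it, in both on the strand opposite to the gene. In Irgm it lay 34 to 25 bases before the start and in Igtp 103 to 94 bases before it, on the gene's own strand, and both genes carried the same 10 letters, GAAACTGAAA. Irgm and Igtp each also held a GAS, in Irgm 45 to 37 bases and in Igtp 114 to 106 bases before the start. In both genes 2 bases separated the GAS from the ISRE core, so the matches did not overlap. A GAS was found in 2 of the 5 windows, against 7.57% of the windows of tested genes and 13.6% of those of the 199 higher genes. The Mx1 window held neither set of letters, which says only that these letters are not in this window. Mx1 had the largest rise of the 5 and Igtp, with matches to both, the smallest. Whether matches go with the size of a rise was not tested.

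**Figure D1:**
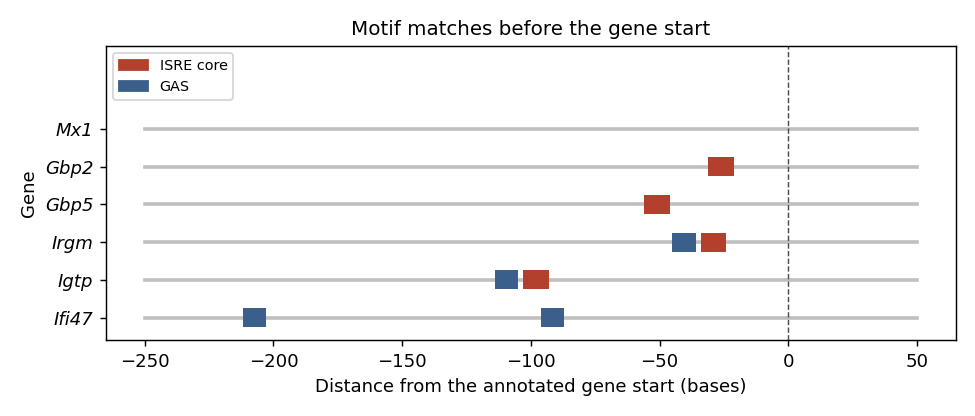
Positions of ISRE core matches (red) and GAS matches (blue) in the RefSeq promoter windows of 5 members and of Ifi47, in bases from the annotated gene start (dashed line), with the grey line as the searched window. Gbp2, Gbp5, Irgm and Igtp carry 1 ISRE core each, Irgm and Igtp carry a GAS beside it, Ifi47 carries 2 GAS matches and Mx1 carries none.

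The transcript that the treatment label names as the target was lower in the Gld2 shRNA cultures. Tent2 had log2 RMA values of 9.50 and 9.35 in the Gld2 shRNA cultures and of 10.73 and 10.67 in the scrambled shRNA cultures, and its level was lower by a log2 difference of -1.28 (limma, Benjamini-Hochberg adjusted p = 0.000754). RMA values are log2 signal intensities of a probe set, and over the table they ran from 3.23 to 14.3. The array medians lay between 8.41 and 8.48, and precision is limited by having 4 arrays. Against the labelled cell type, the neuron marker Snap25 averaged 13.32 in the Gld2 shRNA group and 13.33 in the scrambled shRNA group, near the top of that range. The astrocyte marker Gfap was also near the top, with 13.29 in the Gld2 shRNA group and 13.18 in the scrambled shRNA group.

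The Mx genes had the largest rises of the members. Mx1 (probe set 10753425), which in rat encodes a nuclear protein, had log2 RMA values of 11.66 and 11.60 in the Gld2 shRNA cultures and of 7.86 and 7.97 in the scrambled shRNA cultures. Both knockdown cultures stood far above both controls, and the cultures of a group lay 0.06 apart under Gld2 shRNA and 0.11 apart under scrambled shRNA. The mean was 11.63 ± 0.0403 under Gld2 shRNA and 7.92 ± 0.0791 under scrambled shRNA (SD, n = 2 each), a log2 difference of 3.71 (standard error 0.0690, limma with Benjamini-Hochberg adjusted p = 1.23e-05). By size this was rank 4 among the rises of all genes, and by p it was rank 2 among all genes. Mx2 (probe set 10750524), which in rat encodes a cytoplasmic protein, had values of 11.92 and 11.90 in the Gld2 shRNA cultures and of 8.34 and 8.55 in the scrambled shRNA cultures. The knockdown cultures were almost equal and the controls differed more, by 0.21. Its log2 difference was 3.47 (standard error 0.0838, limma with Benjamini-Hochberg adjusted p = 1.79e-05), rank 8 among the rises. Mx1 and Mx2 are close relatives in sequence, and a probe set of the first may take up signal from the other. The RefSeq gene table lists Mx3 as a synonym of Mx2, so these names are not told apart here.

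**Figure D2:**
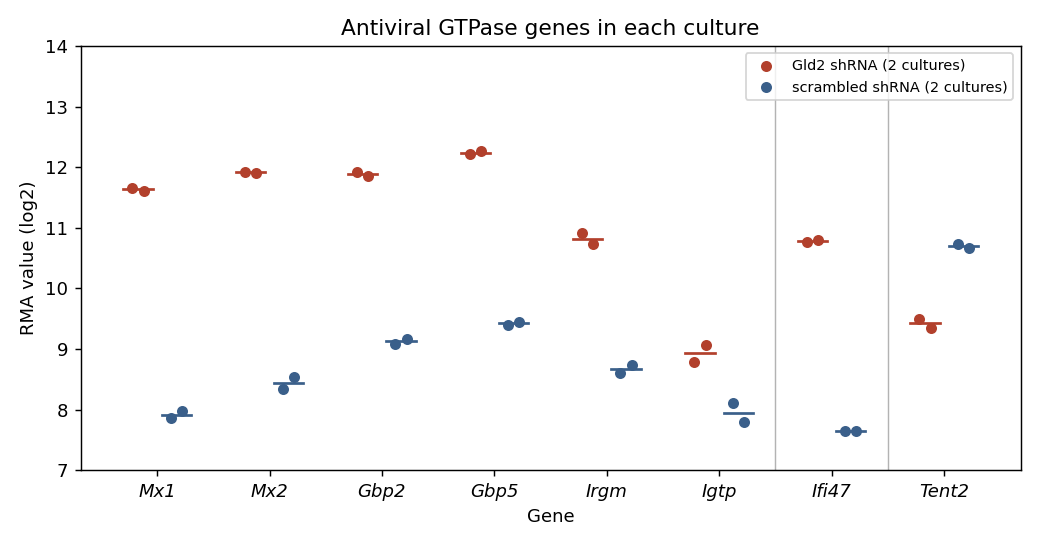
Log2 RMA values of the 6 members, of Ifi47 and of Tent2 in each culture, with Gld2 shRNA cultures in red, scrambled shRNA cultures in blue, points for cultures and short lines for group means (n = 2 each). For every member both red points lie above both blue points, with the widest gap in Mx1 and the narrowest in Igtp, and Tent2 runs the other way.

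The guanylate-binding protein genes rose by similar amounts. Gbp2 (probe set 10819523), whose mouse counterpart acts against intracellular parasites and bacteria, had log2 RMA values of 11.92 and 11.86 in the Gld2 shRNA cultures and of 9.09 and 9.16 in the scrambled shRNA cultures. The groups did not overlap, which held in the upward direction for 24.0% of all genes. The log2 difference of Gbp2 was 2.76 (standard error 0.0643, limma with Benjamini-Hochberg adjusted p = 1.79e-05). Gbp5 (probe set 10819489), which in human cells restrains viruses by lowering furin activity, had values of 12.22 and 12.26 in the Gld2 shRNA cultures and of 9.40 and 9.45 in the scrambled shRNA cultures. The cultures of each group lay close together, with SDs of 0.0276 and 0.0326 in the Gld2 and scrambled shRNA groups. The log2 difference was 2.81 (standard error 0.0612, limma with Benjamini-Hochberg adjusted p = 1.65e-05). The 95% intervals of the fold ran from 6.34 to 7.81 for Gbp5 and from 6.08 to 7.57 for Gbp2. The family holds further close copies in rat that had no row under their symbols, and how far their transcripts add to these probe sets is not known here.

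The immunity-related GTPase genes varied more among themselves. Irgm (probe set 10742348), a member of the subfamily that in mouse regulates the other immunity-related GTPases, had log2 RMA values of 10.91 and 10.73 in the Gld2 shRNA cultures and of 8.60 and 8.74 in the scrambled shRNA cultures. Its groups were well apart, with a log2 difference of 2.15 (standard error 0.0885, limma with Benjamini-Hochberg adjusted p = 0.000180). Igtp (probe set 10733790), which in mouse is also called Irgm3 and belongs to the same regulatory subfamily, had values of 8.78 and 9.07 in the Gld2 shRNA cultures and of 8.11 and 7.79 in the scrambled shRNA cultures. Both knockdown cultures lay above both controls, but the Gld2 shRNA cultures were 0.29 apart and the scrambled shRNA cultures 0.32 apart, the widest spread of the 6 members. The mean was 8.93 ± 0.204 under Gld2 shRNA and 7.95 ± 0.227 under scrambled shRNA (SD, n = 2 each), a log2 difference of 0.98 (standard error 0.138, 95% interval 0.64 to 1.32, limma with Benjamini-Hochberg adjusted p = 0.0247). The call of Igtp did not hold without Gld2 shRNA replicate 2 (log2 difference 0.83, adjusted p = 0.0566), without scrambled shRNA replicate 1 (1.14, adjusted p = 0.0684) or without scrambled shRNA replicate 2 (0.82, adjusted p = 0.158), each from limma and adjusted by Benjamini-Hochberg. The calls of the other 5 members held whichever culture was left out.

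Ordered by the size of the log2 difference, the members ran Mx1, Mx2, Gbp5, Gbp2, Irgm and Igtp. Mx1 exceeded Mx2 by 0.24, and their 95% intervals overlapped, as did those of Gbp5 and Gbp2, which differed by 0.05. At each other step of the order the intervals did not overlap. Mx2 exceeded Gbp5 by 0.65, Gbp2 exceeded Irgm by 0.62 and Irgm exceeded Igtp by 1.17. Of 15 pairs of members, 13 had intervals that did not overlap. A direct test of these gaps, an exact permutation test over the 4 arrays, two-sided, cannot go below p = 0.333, so none of the 15 pairs could reach the threshold, before or after adjustment. Except for Gbp5 and Gbp2, each gap exceeded the SD of the pair's within-array difference in both groups. For Gbp5 and Gbp2 that SD was 0.0689 under Gld2 shRNA and 0.0165 under scrambled shRNA, against a gap of 0.05. For Mx2 and Gbp5 that SD was 0.0399 in the Gld2 shRNA cultures and 0.113 in the scrambled shRNA cultures, and for Irgm and Igtp it was 0.333 in the Gld2 shRNA cultures and 0.325 in the scrambled shRNA cultures.

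Both knockdown cultures ordered the 6 rises the same way. Against the control mean, Mx1 stood 3.74 higher on the log2 scale in Gld2 shRNA replicate 1 and 3.69 higher in replicate 2, and Mx2 stood 3.48 and 3.46 higher in the same cultures. Gbp2 stood 2.79 and 2.73 higher and Irgm 2.24 and 2.05 higher in replicates 1 and 2. Gbp5 and Igtp had the higher value in replicate 2, with Gbp5 at 2.80 and 2.83 and Igtp at 0.83 and 1.12 above the control mean. Thus the rise of the Mx and Gbp genes was almost equal in both knockdown cultures, with gaps of at most 0.06, while those of Irgm and Igtp were wider and ran in opposite directions.

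Of 20 further symbols of interferon-inducible or related GTPases, 3 had a row. Of these 3, 1 rose, 0 fell and 2 did not pass, where 1.69% of all genes rose and 2.41% fell. Ifi47, an interferon-induced immunity-related GTPase, had log2 RMA values of 10.77 and 10.80 in the Gld2 shRNA cultures and of 7.65 and 7.64 in the scrambled shRNA cultures. It was 8.80-fold higher, a log2 difference of 3.14 (standard error 0.0591, limma with Benjamini-Hochberg adjusted p = 1.23e-05), between the Mx and Gbp genes in size. Its promoter window held 2 GAS matches and no ISRE core match. Irgc, a gene of the same family that in mouse is expressed in testis and does not respond to interferon, had values of 8.34 and 8.53 in the Gld2 shRNA cultures and of 8.11 and 8.42 in the scrambled shRNA cultures, with overlapping groups and a log2 difference of 0.17 (limma, Benjamini-Hochberg adjusted p = 0.419). Irgq, a further relative, stood at -0.00 with an adjusted p of 0.988 (limma, Benjamini-Hochberg) and a 95% interval from -0.15 to 0.15. The symbols without a row, among them Gbp1, Gbp3, Gbp6, Gbp7 and Irgm2, were not analysed here.

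Relatives of these proteins in the dynamin superfamily that shape cell membranes did not pass the test. Of 12 measured genes of dynamins, mitochondrial fusion GTPases, atlastins and EHD proteins, 0 rose, 0 fell and 12 did not pass. Over all genes only 1.69% rose and 2.41% fell. The median log2 difference of the 12 genes was -0.08, with a range from -0.29 to 0.15. At an unadjusted p under 0.05 (limma) the 12 genes numbered 4, and the 14497 genes 3687. The smallest p-values belonged to Mfn1, a fusion GTPase of the outer mitochondrial membrane, at -0.29 (adjusted p = 0.112), Atl1, which joins tubules of the endoplasmic reticulum, at -0.21 (adjusted p = 0.157) and Opa1, which fuses the inner mitochondrial membrane, at -0.19 (adjusted p = 0.170), each from limma and adjusted by Benjamini-Hochberg.

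**Figure D3:**
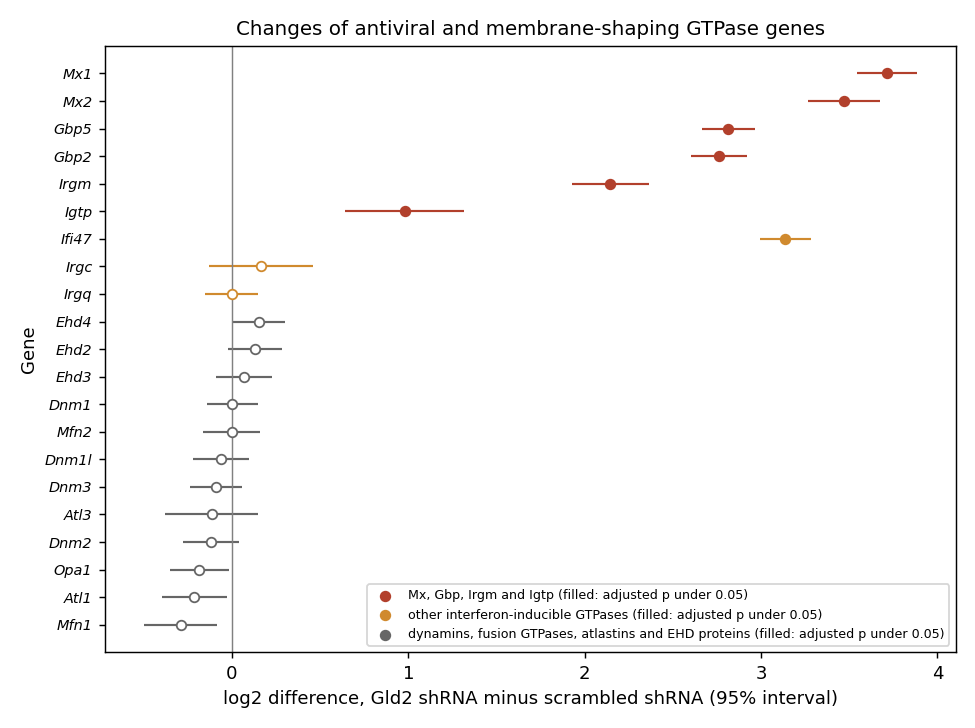
Log2 differences, Gld2 shRNA minus scrambled shRNA, with 95% intervals for the 6 members, the 3 other measured interferon-inducible or related GTPase genes and 12 dynamin superfamily genes that remodel membranes, with filled points for genes past the threshold. The members and Ifi47 lie between 0.98 and 3.71, and the 12 membrane genes between -0.29 and 0.15.

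The pathway that induces these genes was described with a list of 27 interferon signalling genes, of which 21 were measured. Of the 21, 8 rose, 0 fell and 13 did not pass, where 1.69% of all genes rose and 2.41% fell. The median log2 difference of the list was 0.25, against -0.02 over all genes. The rises were those of the transcription factor genes Irf7 (2.80), Stat2 (1.43), Irf9 (1.40), Irf1 (1.30) and Irf2 (0.34), the feedback inhibitor genes Usp18 (3.42) and Socs1 (0.59), and the receptor chain gene Il10rb (0.46), given as log2 differences. Irf9, the DNA-binding part of the complex that reads the ISRE, had log2 RMA values of 11.11 and 11.02 in the Gld2 shRNA cultures and of 9.65 and 9.69 in the scrambled shRNA cultures. Irf1, which acts on promoters of guanylate-binding proteins, had values of 10.51 and 10.43 in the Gld2 shRNA cultures and of 9.15 and 9.19 in the scrambled shRNA cultures. Both transcription factor genes were separated between groups by far more than the cultures of a group differed. Without scrambled shRNA replicate 1 or 2 the rises in this list numbered 5 in each case.

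The interferon genes of the list with a row, Ifnb1 and Ifng, did not pass the test, and other interferon genes are not described here. Both of them and the receptor genes below are named here after their values were seen. Ifnb1, interferon beta, had log2 RMA values of 6.93 and 7.19 in the Gld2 shRNA cultures and of 6.83 and 6.69 in the scrambled shRNA cultures, a log2 difference of 0.30 with an adjusted p of 0.159. Ifng, interferon gamma, had values of 7.01 and 7.29 in the Gld2 shRNA cultures and of 7.40 and 7.57 in the scrambled shRNA cultures, a log2 difference of -0.33 with an adjusted p of 0.146. Both p-values came from limma and were adjusted by Benjamini-Hochberg. In Ifnb1 the knockdown cultures lay above the controls and in Ifng below them, by amounts near the gap of 0.27 (Ifnb1) and 0.28 (Ifng) between the Gld2 shRNA cultures themselves. Ifnar1, a chain of the type I receptor, stood at 0.03 and the interferon gamma receptor genes Ifngr1 and Ifngr2 at 0.11 and -0.01, none past the threshold.

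**Figure D4:**
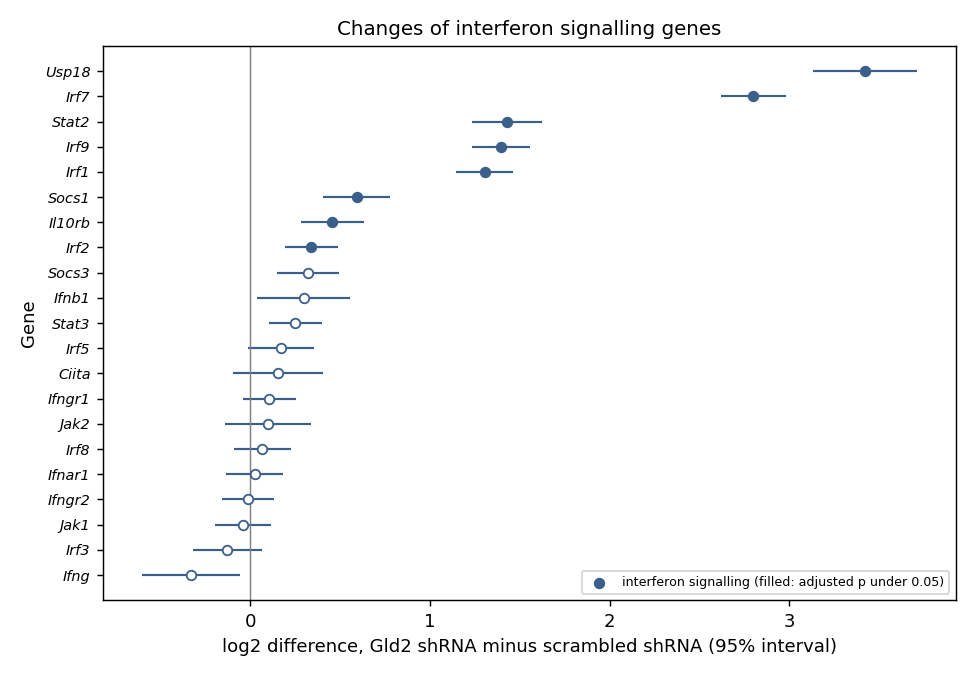
Log2 differences, Gld2 shRNA minus scrambled shRNA, with 95% intervals for 21 measured interferon signalling genes, with filled points for genes past the threshold. The 8 filled points lie between 0.34 and 3.42, and Ifnb1 and Ifng are open points at 0.30 and -0.33.

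Genes of processes in which guanylate-binding proteins and immunity-related GTPases act were also counted. Of 8 measured inflammasome and pyroptosis genes, 3 rose, 0 fell and 5 did not pass, where 1.69% of all genes rose and 2.41% fell. Casp1, the protease of the inflammasome, had a log2 difference of 0.67, Aim2, a sensor of cytosolic DNA, of 0.57 and Gsdmd, which forms the pores of pyroptosis, of 0.43, with adjusted p-values of 0.0407, 0.0280 and 0.0471 in this order (limma, Benjamini-Hochberg). In the scrambled shRNA cultures Casp1 and Aim2 were dim, at percentiles 12.3 and 8.59 of all genes by mean value. The Casp1 values of those cultures lay 0.33 apart. All 3 adjusted p-values were larger than that of Igtp (0.0247, limma, Benjamini-Hochberg), whose call was lost under several alternatives. The calls of these 3 genes were not followed over the alternatives. Of 16 measured autophagy genes, 0 rose, 1 fell and 15 did not pass, with a median of -0.02, as over all genes. The gene that fell was the kinase gene Ulk1 (-0.45, adjusted p = 0.0190), and Becn1 (-0.26) and Gabarapl1 (0.15) did not pass (limma, adjusted by Benjamini-Hochberg).

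In the RefSeq gene order of GRCr8, Mx1 and Mx2 lie on chromosome 11 with Fam3b between them, and Fam3b had a log2 difference of 0.09 (adjusted p = 0.543). On the other side of Mx1 stood Bace2 at 0.11 (adjusted p = 0.320), and beyond Mx2 and 1 gene without a value stood Tmprss2 at 0.44 (adjusted p = 0.0326). On chromosome 2, Gbp5 and Gbp2 flank Gbp4 and 1 further gene without a value. The nearest measured gene on the Gbp5 side, Pdlim5, stood at -0.02 beyond 2 genes without a value (adjusted p = 0.854), and the nearest on the Gbp2 side, Kyat3, stood at 0.49 beyond 7 genes without a value (adjusted p = 0.0181). On chromosome 10, Igtp lay between Mrpl22 at -0.07 (adjusted p = 0.582), beyond 2 genes without a value, and Zfp692 at -0.10 (adjusted p = 0.492), beyond 6. Elsewhere on chromosome 10, the nearest measured gene on the lower side of Irgm, Trim41, stood at -0.27 beyond 10 genes without a value (adjusted p = 0.0756). On the higher side stood RGD1559575 at 0.31 beyond 1 such gene (adjusted p = 0.228). Ifi47 lay farther on the same side, with 3 genes between it and Irgm, of which only RGD1559575 was measured. These values came from limma and were adjusted by Benjamini-Hochberg over all genes. Of the 9 nearest measured genes 2 passed, both upward, where 1.69% of all genes did, and these rose 1.35-fold (Tmprss2) and 1.41-fold (Kyat3).

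**Figure D5:**
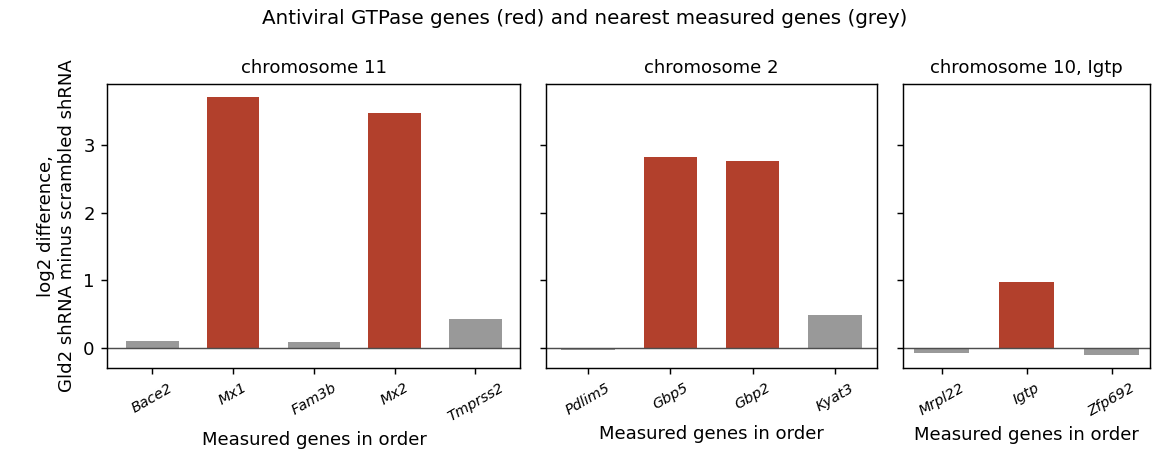
Log2 differences, Gld2 shRNA minus scrambled shRNA, of members (red) and of the nearest measured genes in gene order (grey) on chromosome 11, chromosome 2 and around Igtp on chromosome 10, with genes without a value left out. Red bars reach from 0.98 to 3.71, and the highest grey bar is Kyat3 at 0.49.

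The genes with the most similar profiles were found by the smallest Euclidean distance between the 4 log2 values, each gene centred on its own mean, over all genes other than the members. For Mx1 they were Oas1b at a distance of 0.0858 and Cxcl11 at 0.0859. For Mx2 they were Isg15 at 0.0715 and Ifit2 at 0.102. Gbp2 and Gbp5 shared both nearest genes, Irf7 and Cxcl10, at 0.0960 and 0.116 from Gbp2 and at 0.143 and 0.123 from Gbp5. For Irgm they were Dhx58 at 0.0632 and Ifi44l at 0.0806. For Igtp they were RT1-CE13 at 0.148 and Apol9a at 0.262, the largest distances of the members. With 4 arrays, such a distance mainly reflects the size of the group difference.

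Of the markers of other cell types, 1 astrocyte marker passed the test, where only 1.69% of all genes rose and 2.41% fell. Of 13 microglia markers, 0 rose, 0 fell and 13 did not pass. A value above 0 was seen for 12 of the 13, a larger share than the 6699 of the 14497 genes. The median log2 difference of these markers was 0.14, against -0.02 over all genes, and the highest value was 0.30. The summed linear signal of the 13 microglia markers was 3088 and 3356 under Gld2 shRNA, against 2881 and 2947 under scrambled shRNA. The groups of this sum did not overlap. Among single genes 24.0% did not overlap in the upward direction, but that share is not a background rate for a sum. The smallest p-values belonged to C1qb (0.24), Cx3cr1 (0.30) and Tyrobp (0.21), given as log2 differences. RMA values have no true 0 and no detection calls were used, so absence of a marker could not be read. Of 9 markers of T and NK cells and 5 of endothelial cells, 0 passed, with medians of 0.11 and -0.01. Values above 0 were also seen for 7 of the 9 T and NK cell markers, and for 2 of the 5 endothelial markers. At an unadjusted p under 0.05 (limma), the microglia markers numbered 3, the T and NK cell markers 2, the endothelial markers 1, the astrocyte markers 1 and the neuron markers 0, where 3687 of the 14497 genes did. Of 7 astrocyte markers, 1 fell, the gap junction gene Gja1 (-0.39), and of 9 neuron markers 0 passed, with a median of -0.02. The part of these cell types in the rise of the GTPase genes was not tested.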

How the data were processed

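Poly(A) RNA of 4 cultures was measured on whole-transcript arrays, 2 with Gld2 shRNA and 2 with scrambled shRNA, grouped by the treatment label. The range of the deposited values shows a log2 scale, and per the submitters' processing notes the authors used RMA and affy. The sources used here do not give versions, settings, probe set definition, annotation build or the arrays normalized together. RMA forces arrays to a common distribution, so a shift shared by most genes would be removed. No further normalization or filter was applied.

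Of 28826 probe sets, 15209 had 1 gene symbol and 306 had several, and the row with the highest mean stood for each of 14497 genes. Groups were compared in R 4.3.3 with lmFit and eBayes of limma 3.58.1. The tests were two-sided, p-values were adjusted by Benjamini-Hochberg over all genes at a threshold of 0.05, and intervals are 95%. The residual degrees of freedom were 2, and moderation added 3.96. Promoter windows came from RefSeq (GRCr8) and were searched for exact letters.

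The members, lists and tests were chosen with earlier results of these data known. Named were all members, all measured relatives, up to 8 signalling genes and up to 3 genes of each other list by p, the nearest profiles and the nearest measured neighbours. Ifnb1, Ifng, Ifnar1, Ifngr1, Ifngr2, Snap25 and Gfap fall outside this rule and were named after their values were seen. Alternatives covered the prior variance, filters on dim genes, scaling, probe set choice, a replicate block, moderation and leaving out each culture. Background correction and slide could not be varied from these values.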

Additional observations from a re-analysis of the deposited data

How the results depend on the processing

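All 77 values of the 6 members over 13 alternatives kept their direction, and 67 stayed past the threshold. Igtp had no value with genes under the median left out. Only cyclic loess and median centring could have changed the direction of a member. The other alternatives left its log2 difference as it was, or left out 1 culture of groups that did not overlap. Over the fits without 1 culture, which assume that the lone culture varies like the other group, the log2 differences ran from 3.66 to 3.77 for Mx1, 3.37 to 3.57 for Mx2, 2.73 to 2.80 for Gbp2, 2.79 to 2.84 for Gbp5, 2.05 to 2.24 for Irgm, 0.82 to 1.14 for Igtp and -1.36 to -1.21 for Tent2. Cyclic loess or median centring moved a member by at most 0.0807. Igtp also lost its call at an unchanged 0.98 when all probe sets were tested (adjusted p = 0.0642). Over its alternatives its adjusted p ran from 9.86e-11 with median centring to 0.312 without moderation, all by limma with Benjamini-Hochberg adjustment. With 4 arrays, a value as small as the first rests on variance shared across genes. Without moderation across genes, which leaves 2 degrees of freedom, Mx1 (3.71), Mx2 (3.47), Gbp2 (2.76), Gbp5 (2.81), Irgm (2.15), Igtp (0.98) and Tent2 (-1.28) all lost their calls at the same size, with adjusted p-values from 0.139 to 0.312. In that setting 1 gene passed, 1 higher and 0 lower, with 0 in both the GTPase relatives and the interferon signalling list.

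The counts over all genes depended strongly on the settings. In total 594 genes passed, 245 higher and 349 lower. A prior variance that follows the level gave 2232, 621 higher and 1611 lower. Leaving out genes under the 25th percentile gave 1297 with 949 lower, and under the median 1596 with 1287 lower. Median centring gave 1925, 558 higher and 1367 lower, and testing all probe sets gave 313 probe sets with 116 lower, where 5 interferon signalling genes were higher against 8. Without 1 culture the totals ran from 85 to 2689, the higher genes from 82 to 1283, the lower genes from 3 to 1406 and the higher interferon signalling genes from 5 to 10. The cause was not tested. The final digits of the titles as a replicate block gave 565 genes, 233 higher and 332 lower, with Igtp at an adjusted p of 0.0370 (limma, Benjamini-Hochberg), and changed no call of a member. The deviations of cultures with the same digit correlated at 0.143 across genes, which with 2 pairs does not show that the digits pair the cultures.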
